A study of Macaca mulatta with 30 samples.

Results

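The genes described here are splicing factors and tissue-specific RNA-binding proteins of the rhesus macaque. They were chosen by symbol alone, as the genes of the families SRSF, SF3A and SF3B, U2AF, HNRNP, SNRP, PRPF, CELF, RBFOX, NOVA, ELAVL, PTBP, MBNL, KHDRBS, ESRP, QKI and MSI whose probesets carry 1 gene symbol. This gave 74 genes of the 14132 that are named on the rhesus macaque GeneChip, with 175 of 24956 probesets, and the probeset with the highest mean signal stood for each gene. No MSI gene was among them. Of the 74 genes, 22 belong to the tissue-specific families (CELF to QKI in the list above), 16 are hnRNPs, 10 belong to the PRPF series, 10 to SF3 and U2AF, 8 are proteins of the small nuclear ribonucleoprotein particles (snRNPs) and 8 are SR proteins.

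Introns are removed by the spliceosome, which is built on each transcript from snRNPs and many accessory proteins. The SNRP genes encode proteins of the snRNPs, among them Sm proteins, which form the ring around the snRNAs. U2AF reads the end of the intron, SF3A and SF3B hold the branch point and the PRPF proteins act at various steps of splicing. SR proteins mostly favour the use of an exon and hnRNPs often oppose it, and families such as RBFOX, NOVA, ELAVL and PTBP turn this balance into exon choices that differ between neurons and other cells. Because the probes of this GeneChip lie mainly in last exons, the signals measure the amount of each gene's RNA and not which of its isoforms were made.

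RNA came from 5 sources, which were normal cerebral cortex, pancreas, testis and thymus of rhesus macaques and an immortalized fibroblast cell line with no treatment named. Sex, age and number of animals are not given in the sources used here. Each source gave 1 RNA, of which 2 aliquots were labeled and hybridized separately at each of 3 centers (Oregon, Nebraska and Yerkes), for 30 arrays in all, 10 per center and 6 per tissue. The limma p-values below therefore measure the spread of labeling and hybridization of that RNA and not the spread between animals. A bulk RNA also holds all cells of a tissue, so that fewer cells of a type and less RNA per cell cannot be told apart.

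Signals are log2 values. The arrays of Oregon and Nebraska had mean signals of 6.33 and 6.36 over all probesets and those of Yerkes 6.91, so every fit held a term for center. Most of the markers fitted the labels. All 6 neuronal and all 4 glial genes measured were called higher in cortex, 6 of 6 matrix genes in fibroblasts, 6 of 6 acinar genes in pancreas and 6 of 6 thymocyte genes in thymus. All 5 somatic genes of the testis and 5 of 7 germ cell genes were called higher in testis. The other 2 germ cell genes, PRM1 and ACR, were called higher in pancreas and had their lowest means in testis (6.35 and 5.69). Of 3 islet genes measured, 2 were called higher in pancreas and PCSK2 in cortex. PRSS2, CD8A and TKTL1 in these lists were picked by the paper from the same arrays, and the lists were chosen with earlier results known. The marker calls are therefore not an independent check of the labels. Below, called higher in a tissue means above all 4 other tissues, each with a limma p under 0.05 after adjustment over 52707 probesets, and called lower means below all 4. Unless another is named, the difference given is that from the nearest other tissue, with its standard error (SE).

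In the deposited signals, pancreas was most often the lowest tissue for these genes and thymus most often the highest. Of the 74, 45 had their lowest mean in pancreas and 31 their highest mean in thymus. Of all 14132 genes, 2988 had their lowest mean in pancreas and 2532 their highest in thymus. For each gene the signal in a tissue was set against the mean of the other tissues. The median of this log2 difference over the 74 genes was -1.02 in pancreas, -0.43 in cortex, 0.08 in fibroblasts, 0.49 in testis and 0.54 in thymus. Over all 14132 genes these medians were -0.05, -0.09, -0.01, -0.10 and -0.13. The 74 genes also spread more widely, with a median range over the tissue means of 1.89 against 1.20 for all genes. Their median signal was higher too (8.93 against 7.11), and its part in the wider spread was not tested. The fibroblast median had no settled direction, since it was -0.07 when all 30 arrays were quantile normalized together. The order of testis and thymus was not settled either, with medians of 0.45 in testis and 0.41 in thymus after that step.

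**Figure D1:**
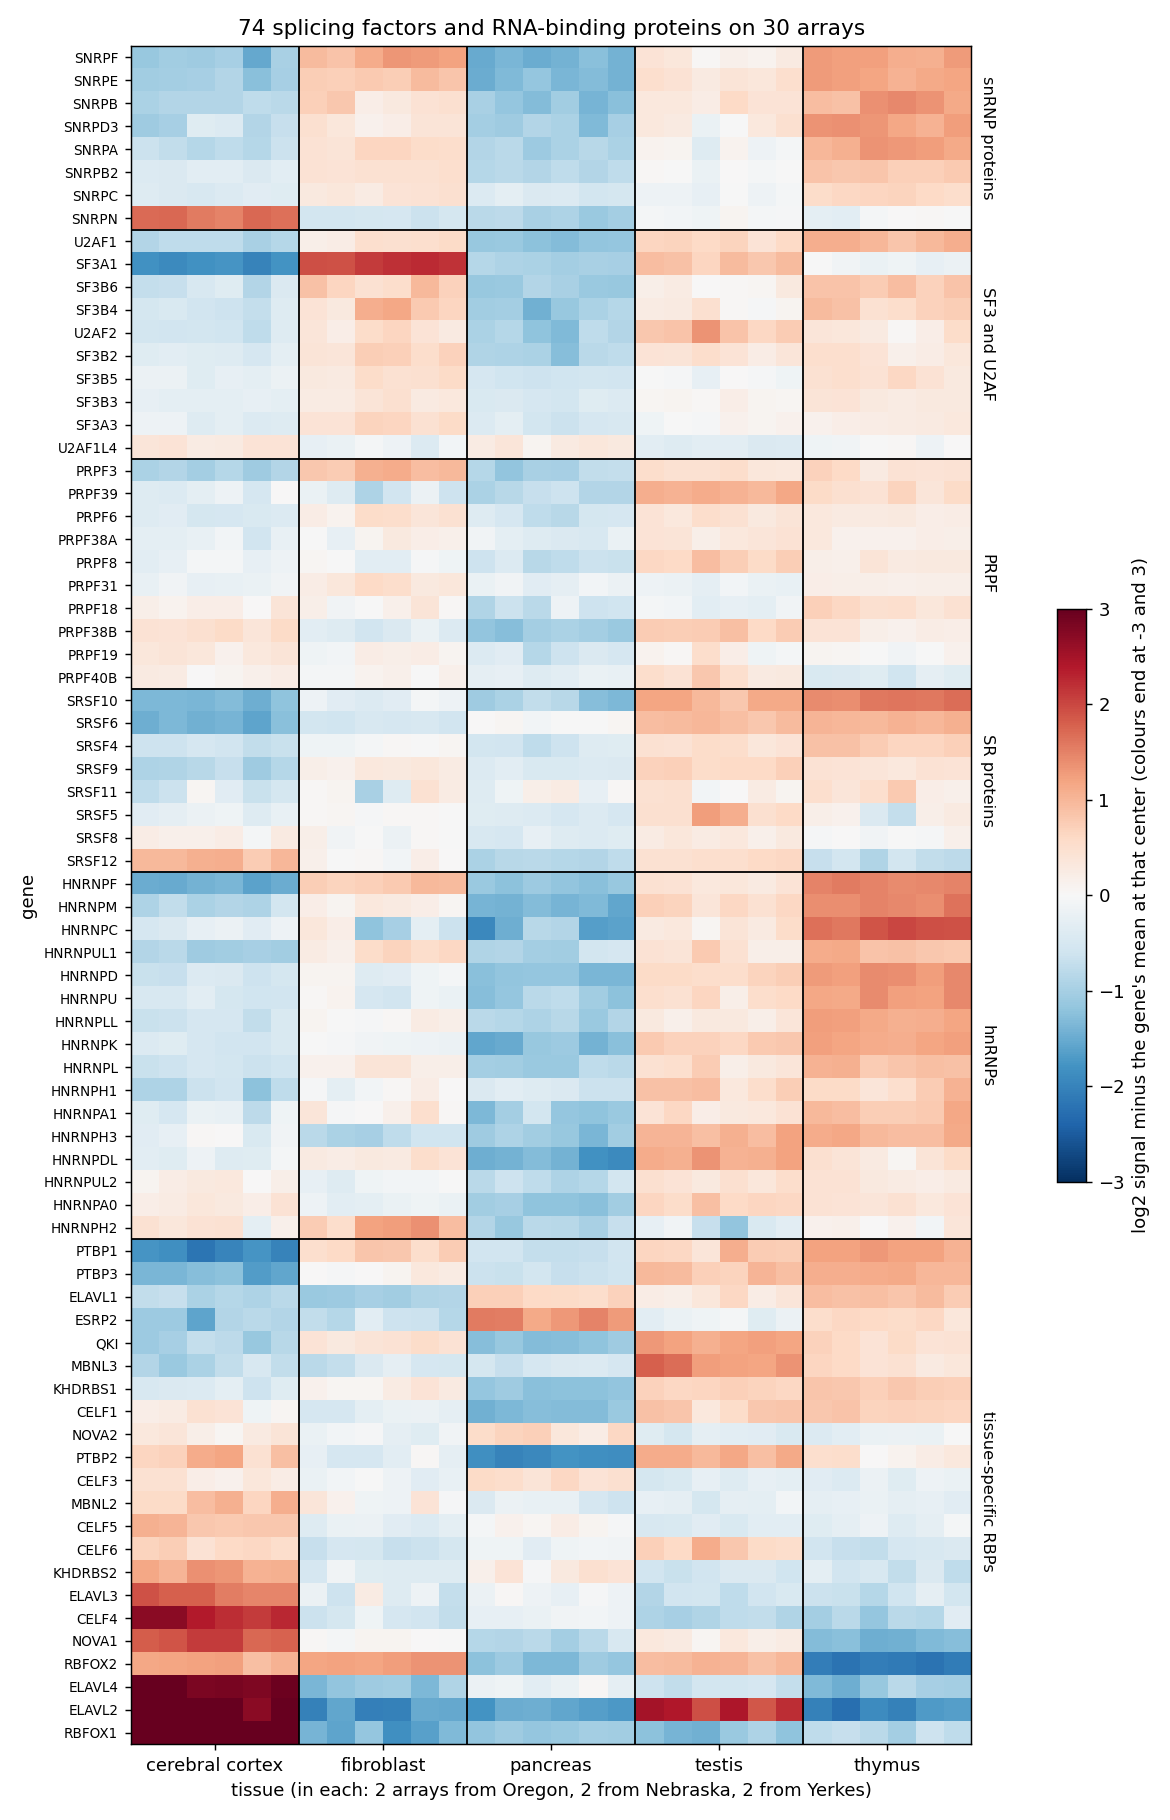
Log2 signal of the 74 genes (rows, by family) on the 30 arrays (columns, by tissue), with the gene's mean at that center subtracted. Most genes of the snRNP and hnRNP families are blue in pancreas and red in thymus, while RBFOX1, ELAVL2, ELAVL4 and CELF4 are deep red in cerebral cortex.

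Cerebral cortex was marked by the neuronal members of the tissue-specific families. Of the 74 genes, 12 were called higher there, which is 16.2% against 13.3% of all genes. With a minimum difference of 1 the count was 6, or 8.11% against 5.63% of all genes. Of these 12, 9 came from the 22 genes of the tissue-specific families, and of the 6, 5 did (RBFOX1, ELAVL4, CELF4, ELAVL3 and NOVA1). Those 22 genes had a median cortex difference of 0.88 from the mean of the other tissues.

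RBFOX1, a regulator of neuronal and muscle exons, gave the largest difference of the 74. Its signal lay between 11.29 and 11.73 on the 6 cortex arrays, with a median of 11.42. The 24 other arrays lay between 5.02 (a fibroblast array) and 6.52 (a thymus array). No array of another tissue came near the cortex arrays. The difference from thymus, the next tissue, was 5.35 (SE 0.11, limma adjusted p = 1.62e-28), with 5.37, 5.73 and 4.95 within the centers of Oregon, Nebraska and Yerkes. The other 2 RBFOX1 probesets gave 5.24 and 4.02. Its paralog RBFOX2, which is used in many more cell types, had a different pattern. RBFOX2 averaged 10.36 in fibroblasts, 10.23 in cortex and 10.08 in testis, where its difference of fibroblasts from cortex was 0.14 (SE 0.07) and did not pass (limma adjusted p = 0.0750). It was called lower in thymus, where the 6 arrays lay between 6.75 and 7.32 (median 6.88), against 7.53 to 8.35 in pancreas (median 7.86). This thymus difference was -0.93 (SE 0.07, limma adjusted p = 4.10e-14), with no overlap of the 2 groups of arrays. On the other 2 probesets of RBFOX2 cortex came first instead, by 0.57 and 0.94, and thymus was lowest on both.

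The ELAVL family encodes Hu proteins, which bind AU-rich RNA and of which ELAVL2, ELAVL3 and ELAVL4 are known from neurons. ELAVL4 ran from 9.30 to 10.28 on the cortex arrays (median 9.998) and from 6.15 to 7.17 in pancreas (median 6.60), the next tissue. The difference was 3.24 (SE 0.12, limma adjusted p = 1.69e-21), and the second ELAVL4 probeset gave 3.88. ELAVL3 lay at 6.49 to 6.89 in cortex (median 6.82) and 4.72 to 5.38 in pancreas (median 4.89), a difference of 1.78 (SE 0.12, limma adjusted p = 1.30e-14). Both genes thus separated cortex from every other array.

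ELAVL2 stood out by a second tissue. It was measured at 9.23 to 9.58 in cortex (median 9.44) and at 8.10 to 8.76 in testis (median 8.64), while the 18 arrays of fibroblasts, pancreas and thymus lay between 3.998 and 5.004. Its cortex difference from testis was 0.88 (SE 0.13, limma adjusted p = 4.51e-07), and the second ELAVL2 probeset gave the same order, with 7.76 in cortex and 7.02 in testis. ELAVL1, the member known from nearly all cells as HuR, was among the lower signals of cortex and not the higher ones. It averaged 9.25 ± 0.26 in thymus, 9.01 ± 0.28 in pancreas, 8.69 ± 0.21 in testis, 7.55 ± 0.30 in cortex and 7.37 ± 0.31 in fibroblasts (SD, n = 6 each). Its thymus call, by 0.24 (SE 0.07, limma adjusted p = 0.00293), turned to -0.43 when all arrays were normalized together. ELAVL1 and RBFOX1 were the 2 genes called lower in fibroblasts, by -0.18 (SE 0.07) and -0.28 (SE 0.11). RBFOX1 was below the array median on all 6 fibroblast arrays, so its signal there was not shown to be above background and no level is read from this call. That is 2.7% of the 74 against 6.35% of all genes, and none was lower there by at least 1 (0.517% of all genes). The count of 2 became 0 without the fibroblast array of Oregon aliquot 2 or that of Nebraska aliquot 2. It became 1 without either cortex array of Oregon, the fibroblast array of Oregon aliquot 1 or Yerkes aliquot 1, or the testis array of Nebraska aliquot 2 or Yerkes aliquot 1.

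CELF proteins bind GU-rich RNA and regulate both splicing and RNA decay. CELF4 was at 8.15 to 8.74 on the cortex arrays (median 8.65) and at 5.73 to 6.41 in pancreas (median 5.80), with a difference of 2.56 (SE 0.11, limma adjusted p = 2.07e-19). CELF5 was called higher in cortex by a smaller step, with 6.67 to 7.31 in cortex (median 6.83) and 5.75 to 6.58 in pancreas (median 6.02). The difference was 0.81 (SE 0.07, limma adjusted p = 6.80e-12). CELF6 reached 7.72 ± 0.24 in testis and 7.60 ± 0.31 in cortex (SD, n = 6 each), and these neighbours did not pass (difference 0.12, SE 0.08). CELF1, the widely used member, was alike in thymus and testis (10.98 and 10.97) and was called lower in pancreas, at 8.75 to 9.31 (median 8.88) against 9.68 to 10.26 in fibroblasts (median 9.92). That difference was -0.98 (SE 0.10), but only -0.17 and no longer called after joint normalization.

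NOVA1, a neuronal splicing regulator first known as an autoimmune antigen, was at 8.72 to 9.22 in cortex (median 9.18) and 7.14 to 7.68 in testis (median 7.30). Its difference was 1.68 (SE 0.08, limma adjusted p = 5.48e-19). NOVA1 was also called lower in thymus, by -0.54 (SE 0.08), and with RBFOX2 it made up the 2 thymus-low genes (2.7% against 9.31% of all genes, none by at least 1 against 1.12%). On every thymus array NOVA1 was below the array median, so no thymus level is read from this call. KHDRBS2, a brain-enriched relative of Sam68, and MBNL2, a muscleblind protein with a known role in brain splicing, were called higher in cortex by 0.88 (SE 0.09) and 0.71 (SE 0.11). MBNL2 had 3 probesets, all of which put cortex first.

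**Figure D2:**
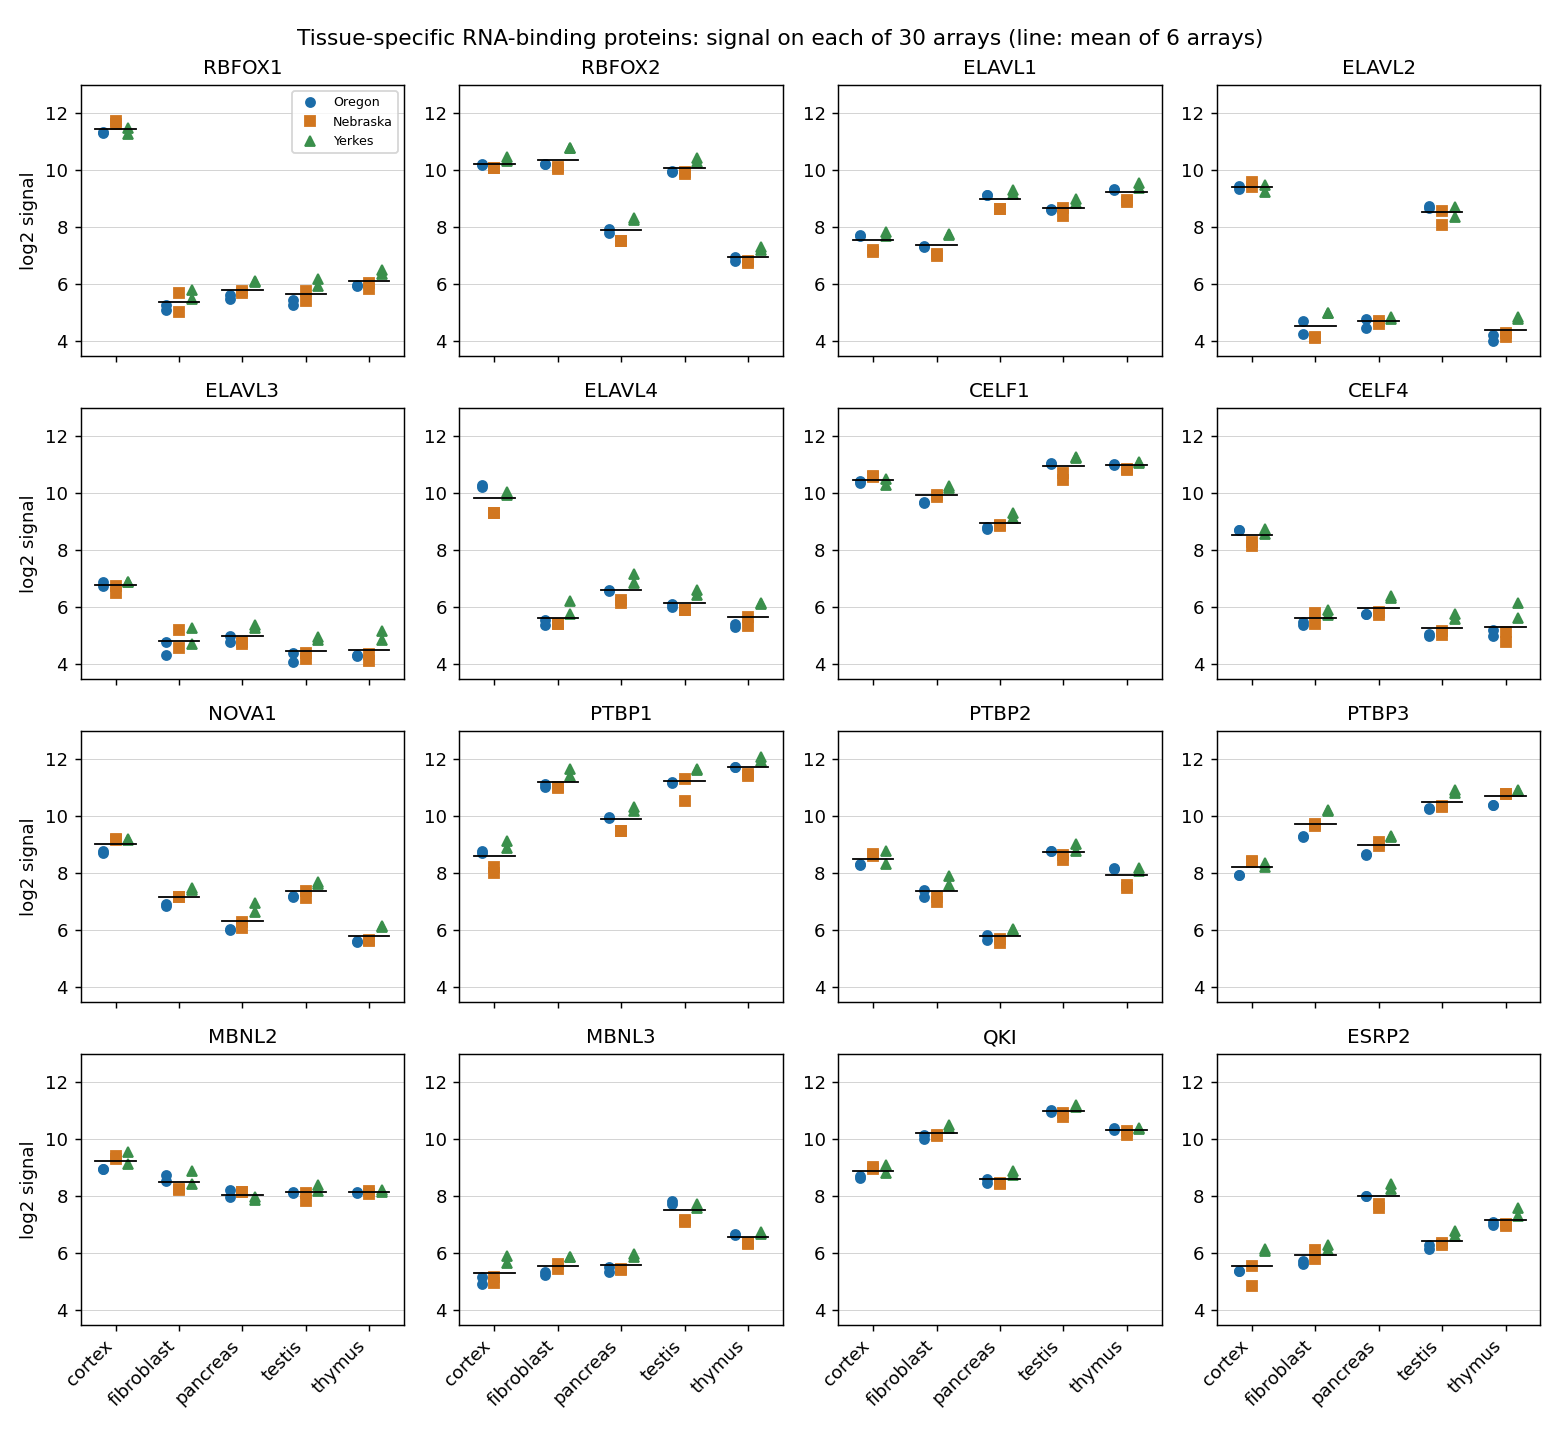
Log2 signal (y axis) of 16 tissue-specific RNA-binding proteins on each array, by tissue (x axis) and center (colour and shape), with a black line at the mean of 6 arrays. RBFOX1, ELAVL3, ELAVL4 and CELF4 are set apart in cortex alone, ELAVL2 in cortex and testis, and PTBP1 and PTBP3 are lowest in cortex.

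Outside these families, 3 genes were called higher in cortex. SNRPN, an imprinted gene whose product replaces the common SmB protein in neurons, was at 12.31 to 13.06 in cortex (median 12.52) and at 10.71 to 11.31 in testis (median 10.83). The groups did not overlap, and the difference was 1.68 (SE 0.07, limma adjusted p = 4.83e-20), with 1.34 on its second probeset. SNRPB, the gene for that common protein, was called higher in thymus instead, with a mean of 10.44 there and 8.40 in cortex. The SR protein gene SRSF12 was higher in cortex by 0.45 (SE 0.07), at 7.76 to 8.20 against 7.25 to 7.81 in testis, where the ranges overlapped. PRPF19, a ubiquitin ligase of the spliceosome, passed by 0.21 (SE 0.09, limma adjusted p = 0.0491) and was -0.12 at Nebraska alone.

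PTBP1 and PTBP3 were lowest in cortex. PTBP1 represses many exons that neurons include, and neurons are known to replace it with PTBP2. PTBP1 was at 8.02 to 9.13 on the cortex arrays (median 8.74) and at 9.47 to 10.32 in pancreas (median 9.96), the next lowest tissue, and reached 11.42 to 12.09 in thymus (median 11.74). Cortex was lower than pancreas by -1.28 (SE 0.09, limma adjusted p = 5.89e-14), and the centers taken 1 by 1 gave -1.23 (Oregon), -1.37 (Nebraska) and -1.25 (Yerkes). Of its other 3 probesets, 2 also had cortex lowest, by -2.22 and -0.94, but on the third cortex was second highest (8.27) and fibroblasts lowest (6.34). The mean over the 4 probesets gave a cortex difference of -0.81, which was still called but not by at least 1. PTBP3, a paralog known from blood cells, was lower in cortex too, at 7.94 to 8.43 (median 8.30) against 8.65 to 9.31 in pancreas (median 9.03), a difference of -0.77 (SE 0.08). PTBP2 was not confined to cortex in these arrays. It averaged 8.75 ± 0.18 in testis and 8.51 ± 0.21 in cortex (SD, n = 6 each), which did not pass as different (0.24, SE 0.11, limma adjusted p = 0.0513), although it passed in 10 of the 30 fits that left out 1 array. It was lowest in pancreas, at 5.55 to 6.05 (median 5.76) against 6.99 to 7.90 in fibroblasts (median 7.30), by -1.58 (SE 0.11, limma adjusted p = 2.51e-14). PTBP2 was below the array median on every pancreas array. Its signal there was thus not shown to be above background, and no pancreas level is read from this call.

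PTBP1 was the single one of the 74 genes lower in cortex by at least 1 (1.35% against 1.51% of all genes). In all, 10 were called lower in cortex (13.5% against 12.1%), namely PTBP1, PTBP3, SF3A1, SRSF6, SRSF9, SRSF10, HNRNPF, HNRNPH1, ESRP2 and MBNL3. ESRP2 and MBNL3 were below the array median on every cortex array, so no cortex level is read from their calls. Of the 10, SRSF6, an SR protein, was at 8.60 to 9.18 in cortex (median 8.70) against 9.51 to 9.96 in fibroblasts (median 9.57), a difference of -0.88 (SE 0.06, limma adjusted p = 1.92e-15). SRSF9 was lower by -0.46 (SE 0.06). These counts depended on the pancreas arrays. With pancreas left out, 40 of the 74 genes (54.1%) were called lower in cortex, against 20.6% of all genes, and 14 by at least 1, against 4.21%. After joint normalization of the 5 tissues the count was 19 (25.7% against 12.9%).

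Fibroblasts had few calls among these genes. There were 5 higher, or 6.76% against 16.7% of all genes, and 1 by at least 1, or 1.35% against 4.63%. That 1 was SF3A1, a subunit of the U2 snRNP needed for branch point recognition. SF3A1 was at 11.53 to 12.22 in fibroblasts (median 11.83) and at 10.33 to 10.94 in testis (median 10.59), and at 7.72 to 8.18 in cortex (median 7.89), where it was lowest. No arrays of these groups overlapped. The fibroblast difference was 1.23 (SE 0.07, limma adjusted p = 8.14e-17) and the cortex difference -0.90 (SE 0.07, limma adjusted p = 1.87e-13). The 8 SF3A1 probesets disagreed, however. Another 2 put fibroblasts first by 1.58 and 1.29 and 1 by 0.19, while 4 put thymus first by 0.03 to 0.18, and the mean over all 8 gave a fibroblast difference of 0.28. The other calls were HNRNPH2 (0.75, SE 0.15), PRPF3 (0.46, SE 0.08), SF3A3 (0.29, SE 0.07) and PRPF31 (0.21, SE 0.06), where PRPF3 and PRPF31 are parts of the tri-snRNP. HNRNPH2 varied most with the center among these, from 0.24 (Oregon) over 0.78 (Nebraska) to 1.01 (Yerkes).

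In the deposited signals, pancreas was the low end for most families of the general splicing machinery. The SR proteins were lower in cortex, where their median difference from the other tissues was -0.68, against -0.53 in pancreas. Of the 74 genes, 37 (50%) were called lower there, against 15.1% of all genes. The 37 held 13 of 16 hnRNPs, 8 of 10 SF3 and U2AF genes, 6 of 8 snRNP proteins, 5 of 10 PRPF genes, 4 of 22 genes of the tissue-specific families and 1 of 8 SR proteins. Most steps were small, and 2 genes (HNRNPDL and PTBP2) were lower by at least 1 (2.7% against 1.84%). Of these, PTBP2 was below the array median on every pancreas array. HNRNPDL, a paralog of the AU-binding protein HNRNPD, was at 8.39 to 8.94 in pancreas (median 8.85) against 9.81 to 10.25 in cortex (median 10.02). Its pancreas difference was -1.28 (SE 0.10, limma adjusted p = 2.84e-13), and all 4 of its probesets had their lowest mean in pancreas. HNRNPC, which packages nascent transcripts, was lower by -0.96 (SE 0.20) and HNRNPA0 by -0.91 (SE 0.07, limma adjusted p = 6.31e-14). The pancreas arrays of HNRNPA0 lay below all fibroblast arrays. HNRNPC differed between centers, with -1.23 for Oregon, -1.15 for Yerkes and 0.25 for Nebraska, where fibroblasts had the lowest signal.

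The paper reports that the pancreas arrays were of lower quality than the others, by their scaling factors and the standard errors of their signals. It advises caution with the pancreas data. Other measures of these arrays stand beside the result. Its arrays had the narrowest spread of signals (SD over probesets 1.24 to 1.29, against 1.37 to 1.56 in the other tissues), and the control probesets of the 3' end exceeded those of the 5' end by 1.58 ± 0.49 for GAPDH and 1.81 ± 0.47 for ACTB (SD, n = 6 arrays). These values were 0.47 ± 0.36 and 0.24 ± 0.44 in thymus, and 1.81 ± 0.58 and 2.00 ± 0.55 in fibroblasts, where the median of the 74 genes was 0.08. The 6 acinar genes had a mean signal of 14.08 to 14.62 on the pancreas arrays. The part of array quality and of these measures in the pancreas result was not tested.

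The share of genes called lower in pancreas also grew with the signal, when all genes were split by mean signal into 4 classes of equal size. In the highest class (mean signal of at least 8.05), which held 48 of the 74 genes, 30 (62.5%) were called lower, against 33.1% of the 3533 genes of that class. The 48 had a median pancreas difference of -1.18 from the mean of the other tissues, against -0.56 for the 3533. When all 30 arrays were quantile normalized together, 14 of the 74 (18.9%) were called lower in pancreas against 11.3% of all genes, 13 of them among the 37. That step moved the pancreas median of all genes by 0.11, and relative to it the median of the 74 genes was -0.67, against -0.97 before. The differences of QKI, SNRPN, SNRPB, SNRPD3, PRPF19, SF3A3, SF3B3 and U2AF2 then turned to above 0. Cortex then had more low calls than pancreas, with 19 of the 74 (25.7% against 12.9% of all genes). The snRNP median was then -0.88 in cortex and -0.80 in pancreas, and that of the SR proteins -0.72 and -0.10. Without a center term 21 of the 37 passed as lower in pancreas, or 28.4% of the 74 against 9.18% of all genes.

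**Figure D3:**
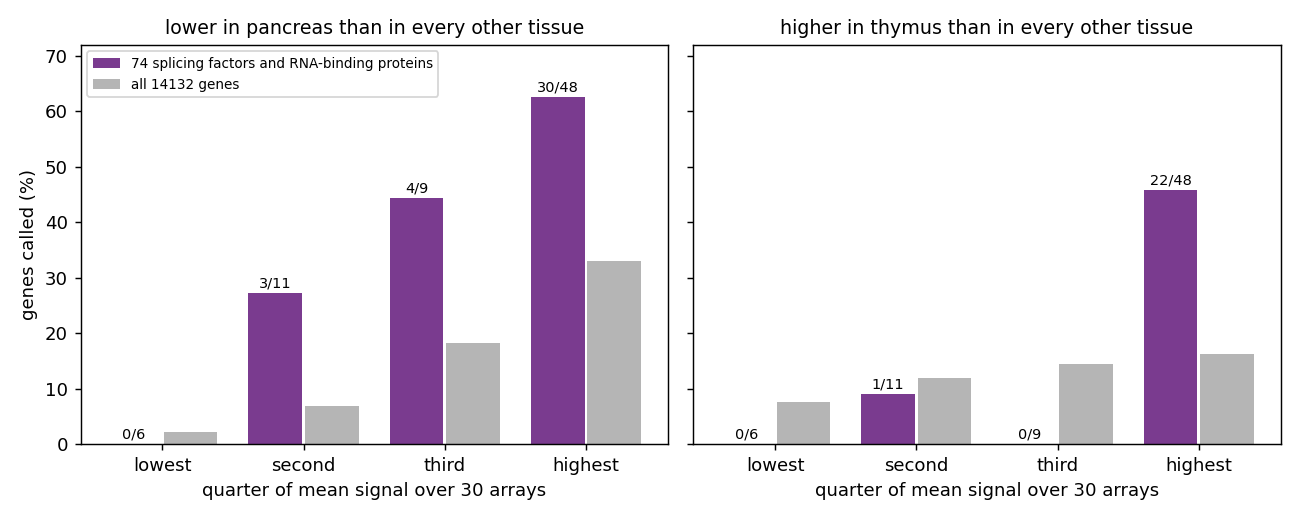
Share of genes called (y axis, %) lower in pancreas (left) and higher in thymus (right) by class of mean signal, low to high (x axis, 4 classes of equal size), for the 74 genes (purple, with counts) and all 14132 genes (gray). In the highest class the shares are 62.5% and 33.1% for pancreas and 45.8% and 16.3% for thymus.

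Pancreas was highest for 3 genes (4.05% against 21.2% of all genes), none by at least 1 (1.98% of all genes). ESRP2, an epithelial splicing regulator, was at 7.58 to 8.45 in pancreas (median 8.01) and at 6.97 to 7.58 in thymus (median 7.06), with 4.85 to 6.15 in cortex (median 5.47). The highest thymus array met the lowest pancreas array, but within each center the 2 tissues were apart. The difference was 0.84 (SE 0.10, limma adjusted p = 1.29e-08). Of 6 epithelial marker genes measured, 3 (EPCAM, CLDN4 and CDH1) were called higher in pancreas, while KRT18 was called higher in cortex and KRT19 in thymus. The mean signal of the 6 was 8.01 in pancreas, 7.17 in testis, 6.63 in thymus and 6.28 in cortex. CELF3 and NOVA2, both known from neurons, passed by 0.20 (SE 0.07, but not without the cortex array of Nebraska aliquot 2) and 0.25 (SE 0.08). Calls of this direction were common at low signal. In the lowest class of mean signal, which held NOVA2 (mean 5.90), 37.3% of all genes were called higher in pancreas, and in the highest class 5.12%. The second CELF3 probeset gave the opposite order, with cortex at 8.71 and pancreas at 7.55.

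In the deposited signals, thymus was the high end for the hnRNPs and snRNP proteins. Testis had the highest median against the other tissues for SR proteins (0.73, thymus 0.51) and PRPF genes (0.52, thymus 0.32). Fibroblasts had it for SF3 and U2AF (0.60, thymus 0.42), though after joint normalization thymus did (0.29, fibroblasts 0.25). Cortex had it for the tissue-specific families (0.88, thymus -0.32). Of the 74 genes, 23 (31.1%) were called higher in thymus, against 12.6% of all genes, and 1 by at least 1 (1.35% against 3.33%). The 23 held 10 of 16 hnRNPs and 6 of 8 snRNP proteins. HNRNPC was the gene above 1, at 10.44 to 11.37 in thymus (median 10.99) and 9.11 to 9.99 in testis (median 9.31). The arrays did not overlap, and the difference was 1.51 (SE 0.20, limma adjusted p = 5.36e-08). SNRPD3, an Sm ring protein, was at 10.05 to 10.46 in thymus (median 10.26) against 9.04 to 9.58 in fibroblasts (median 9.27), a difference of 0.94 (SE 0.12). HNRNPLL, which directs the splicing of the CD45 antigen in T cells, was at 9.31 to 9.74 in thymus (median 9.62) and at 8.52 to 8.93 in testis (median 8.60). Its difference was 0.90 (SE 0.07, limma adjusted p = 1.92e-13), with 0.84 and 0.11 on 2 other probesets. The remaining probeset, below the array median on all 30 arrays, put cortex first by 0.04. HNRNPM was higher by 0.88 (SE 0.07, limma adjusted p = 4.20e-12), and PTBP1 by 0.49 (SE 0.09).

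On each array the median of the 16 hnRNPs, set against the gene's mean at that center, was 0.90 to 1.15 in thymus and -1.22 to -1.03 in pancreas. Testis gave 0.40 to 0.58, fibroblasts -0.06 to 0.18 and cortex -0.61 to -0.36, so that the arrays of each tissue kept apart from those of the others. Against the mean of the other tissues the hnRNP median was 1.23 in thymus and -1.35 in pancreas, and the median of the snRNP proteins 1.47 and -1.24. After joint normalization 22 of the 74 genes (29.7% against 11.7% of all genes) were called higher in thymus, 20 of them among the 23. Without a center term the count was 14 (18.9% against 7.83%). Genes of cell division also stood highest in thymus, where 6 of 7 were called higher. The mean signal of these 7 was 10.23 to 10.62 on the thymus arrays, 9.004 to 9.60 in fibroblasts, 7.56 to 8.26 in testis, 5.83 to 6.37 in pancreas and 5.66 to 6.30 in cortex. Its part in the splicing gene levels was not tested.

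**Figure D4:**
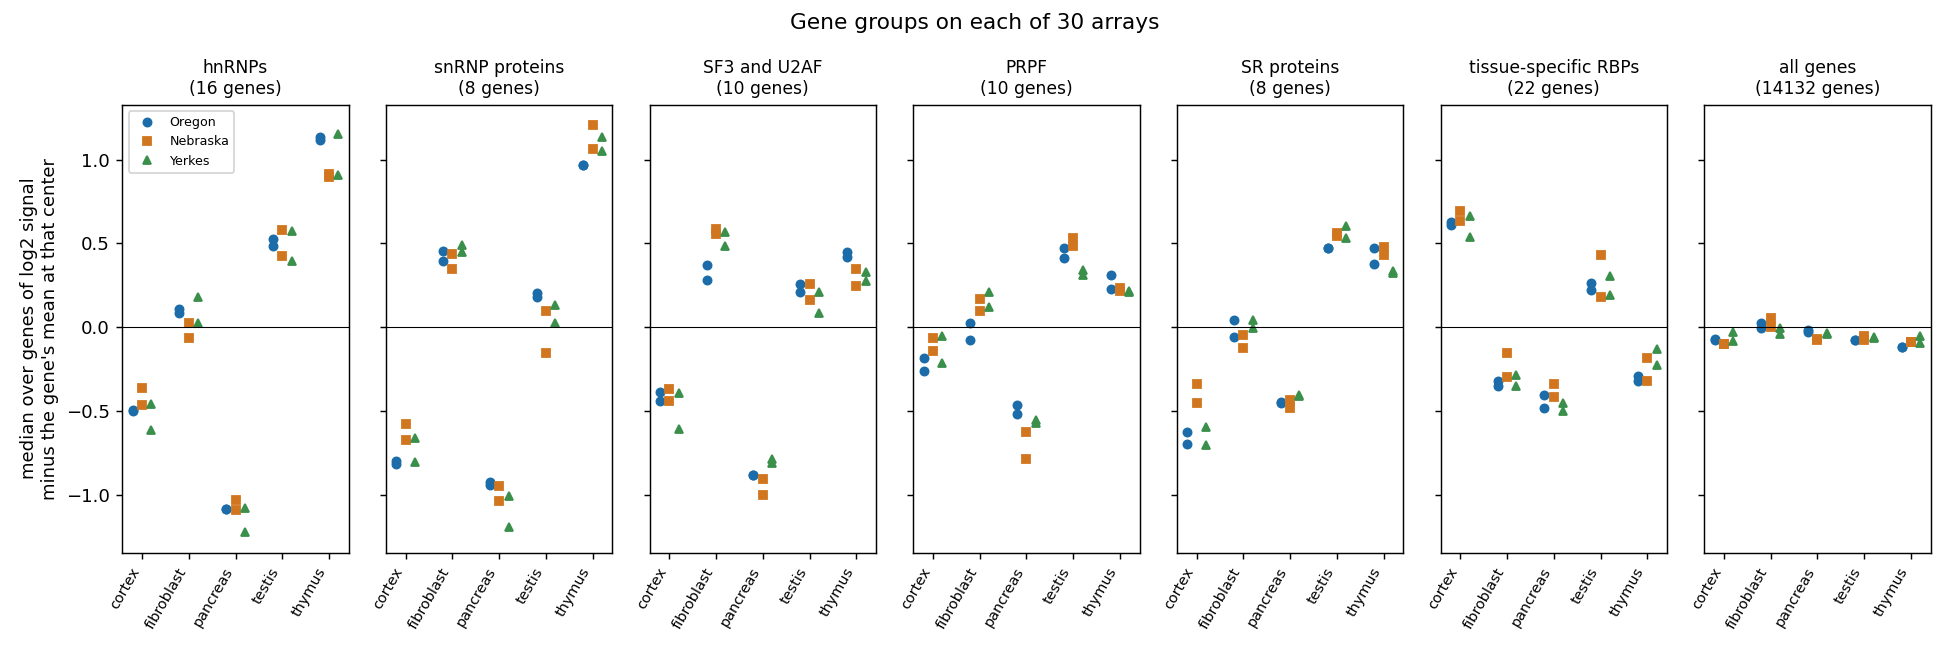
Median over the genes of each family (panels) of log2 signal minus the gene's mean at that center (y axis), 1 point per array, by tissue (x axis) and center. The hnRNP points lie between 0.90 and 1.15 in thymus and between -1.22 and -1.03 in pancreas, while the panel of all 14132 genes stays within -0.12 and 0.06.

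Testis had 11 genes called higher (14.9% against 9.71%), none by at least 1 (1.97% of all genes). MBNL3, a muscleblind protein, was at 7.10 to 7.84 in testis (median 7.65) and at 6.32 to 6.74 in thymus (median 6.66), a difference of 0.95 (SE 0.11, limma adjusted p = 4.17e-09) with no overlap. QKI, a STAR protein known for its role in myelin and RNA circularization, was at 10.80 to 11.20 in testis (median 10.98) and 10.15 to 10.41 in thymus (median 10.34), against 8.63 to 9.11 in cortex (median 8.88). Its testis difference was 0.68 (SE 0.07, limma adjusted p = 1.27e-09), and 5 of its 7 other probesets also put testis first. HNRNPDL was higher in testis by 0.78 (SE 0.10), and SRSF5, an SR protein, by 0.70 (SE 0.13). SRSF5 was 1.17 at Nebraska but 0.32 at Oregon and 0.32 at Yerkes, and its thymus signal ran from 8.82 to 10.73. PRPF39, a U1-associated factor, was higher by 0.56 (SE 0.10) and U2AF2, which binds the polypyrimidine tract, by 0.46 (SE 0.11). U2AF1L4, a paralog of U2AF1, was the 1 gene lower in testis, by -0.18 (SE 0.06, limma adjusted p = 0.0156), which is 1.35% against 4.95% of all genes. Most of its testis arrays lay below the array median, such as 6.53 against 6.72 for Yerkes aliquot 1. No testis level of U2AF1L4 is therefore read from this call. None was lower there by at least 1 (0.0425% of all genes).

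The flattest profiles were those of PRPF31, PRPF38A, SRSF8, U2AF1L4 and SF3B3, whose tissue means spanned 0.59, 0.67, 0.67, 0.72 and 0.77. PRPF31 was at 8.14 to 8.80 in fibroblasts and at 7.58 to 8.38 in pancreas, with overlapping arrays. KHDRBS1, the Sam68 protein that links signalling to splicing, did not separate thymus from testis (11.12 ± 0.12 and 11.01 ± 0.16, SD, n = 6 each) and was called lower in pancreas by -0.76 (SE 0.06).

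Other genes of RNA processing were taken from lists chosen with earlier results of these data known, so their counts are not an independent check. Their counts are read against all genes, of which 15.1% were called lower in pancreas, 12.1% lower in cortex, 12.6% higher in thymus and 9.71% higher in testis. Of 39 further core spliceosome genes measured (50 listed), 23 were called lower in pancreas and 4 in cortex, while 10 were called higher in thymus and 8 in testis. Their medians against the other tissues were -0.85 in pancreas, -0.39 in cortex, 0.25 in testis, 0.30 in fibroblasts and 0.46 in thymus. After joint normalization those of pancreas and cortex were -0.54 and -0.37. PUF60, which helps U2AF at the polypyrimidine tract, averaged 8.23 in pancreas and 9.68 in cortex, a difference of -1.44 (SE 0.06). CRNKL1 was called higher in testis by 1.31 (SE 0.05), SNU13, a protein of the U4 snRNP, in cortex by 1.02 (SE 0.06), and BUD31 in fibroblasts by 0.97 (SE 0.07). Of 14 genes of the exon junction complex and mRNA export (19 listed), 6 were called higher in thymus and 2 in testis, and 4 were called lower in pancreas and another 4 in cortex. The medians of this list were -0.69 in pancreas and -0.66 in cortex, but -0.19 and -0.64 after joint normalization. The largest were THOC6 (thymus, 1.37, SE 0.14) and the helicase DDX39A (thymus, 1.11, SE 0.08), with SAP18 lower in pancreas (-0.84, SE 0.09, but 0.046 after joint normalization) and ALYREF higher in thymus (0.68, SE 0.11).

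Of 13 kinases and partners of SR proteins (21 listed), 5 were called lower in pancreas and 3 in cortex, and 3 each were called higher in thymus and in testis. Their medians were -0.75 in pancreas and -0.48 in cortex, but -0.36 and -0.49 after joint normalization. The kinase DYRK1A was lower in pancreas by -1.09 (SE 0.06), TNPO3, which carries SR proteins into the nucleus, by -0.73 (SE 0.08), and SREK1 was lower in cortex by -0.72 (SE 0.08). RSRC1 was higher in fibroblasts by 0.81 (SE 0.07). Of 41 other RNA-binding regulators (59 listed), 10 were called higher in thymus, 9 in testis, 4 in cortex (13.3% of all genes), 4 in pancreas (21.2%) and 2 in fibroblasts (16.7%). Lower calls numbered 7 in pancreas, 6 in cortex, 5 in fibroblasts and 5 in thymus. The list had its lowest median in cortex (-0.51, with -0.47 in pancreas) and its highest in testis (0.45, with 0.31 in thymus). After joint normalization its median was -0.48 in cortex and -0.03 in pancreas. DAZL, a germ cell translation regulator, averaged 7.96 in testis and 5.15 in fibroblasts, a difference of 2.82 (SE 0.10). CPEB3, a regulator of translation at synapses, was higher in cortex by 2.47 (SE 0.12), and the epithelial factor RBM47 in pancreas by 1.88 (SE 0.09). FMR1, the fragile X gene, was lower in pancreas by -1.85 (SE 0.14), at 6.16 in pancreas against 8.003 in thymus. The lowest array median of pancreas was 6.18, so no pancreas level of FMR1 is read from this call.

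The tissue order of these genes largely held from center to center. Tissue accounted for a median of 89.5% of a gene's variance over the 74 genes and center for 6.94%, against 70.7% and 23.2% over all genes. Within each of the 3 centers, both arrays of the highest tissue lay above all 8 other arrays in 51 of the 74 genes (68.9%), against 60.5% of all genes. The 74 genes had the higher median signal (8.93 against 7.11), and its part in these shares was not tested. The interaction of tissue and center passed limma's F test for 35 of the 74 (47.3%), against 33.4% of all genes. SNRPB, called higher in thymus by 0.69 (SE 0.10), ranged from 0.15 (Oregon) over 0.78 (Yerkes) to 0.99 (Nebraska). SF3B4, a U2 subunit, had fibroblast differences of -0.56 (Oregon) and 0.64 (Nebraska) from the highest other tissue, so that its highest tissue was not settled.

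**Figure D5:**
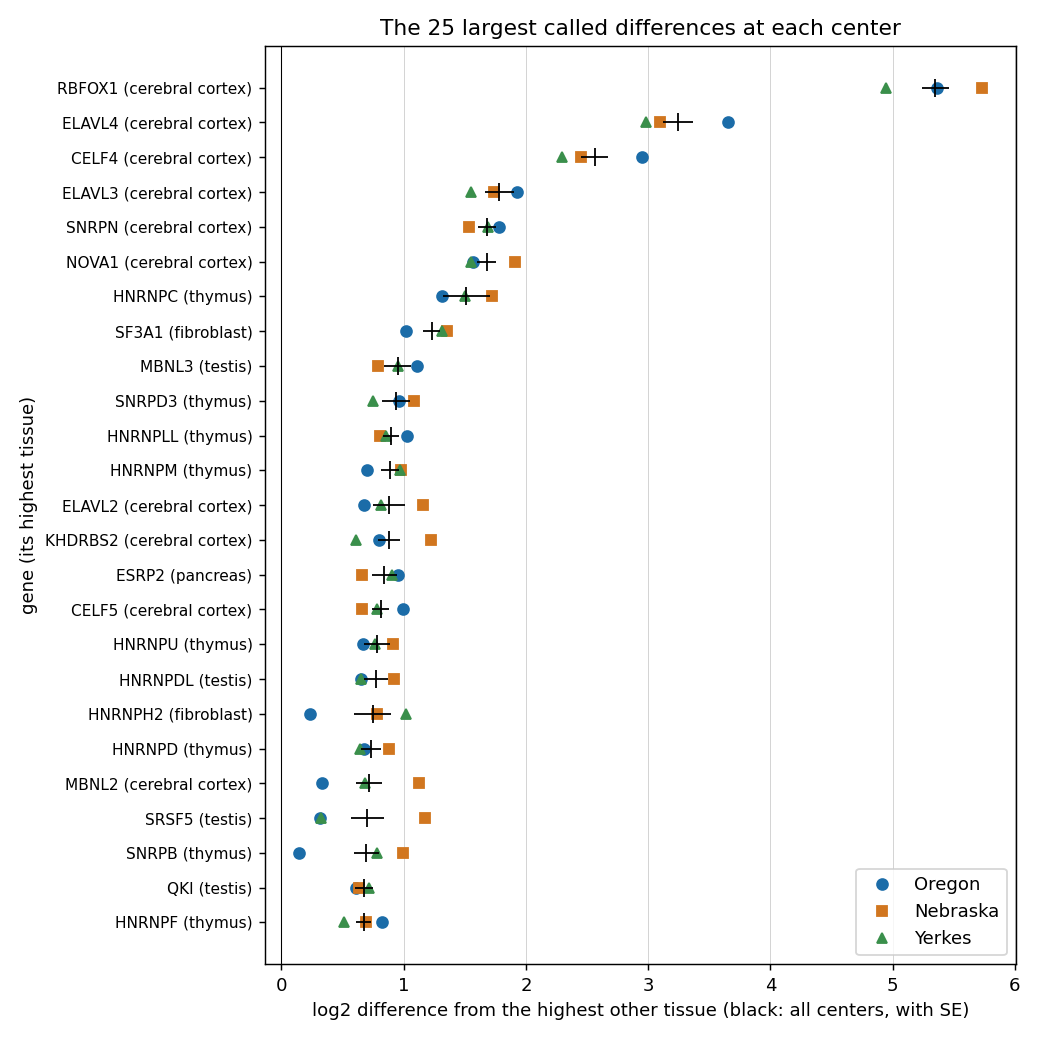
Log2 difference of a gene's highest tissue from the highest other tissue (x axis) for the 25 genes with the largest called differences (rows, tissue in parentheses), at each center (coloured points) and over all centers (black, with SE). All center values lie above 0, from 0.15 for SNRPB at Oregon to 5.73 for RBFOX1 at Nebraska.

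The choice of probeset mattered for some genes. There were 45 genes with more than 1 probeset, and 57 of the 101 other probesets had the same highest tissue as the one used. Of the 6 genes called higher in cortex by at least 1, CELF4 and ELAVL3 had a single probeset, and every other probeset of RBFOX1, ELAVL4, NOVA1 and SNRPN also put cortex first. For HNRNPH1, whose probeset used gave testis and thymus as close neighbours (10.92 and 10.84), 4 of the other 5 put thymus first by 0.68 to 0.92 and 1 put cortex first by 0.43. Of the 74 probesets used, 11 carry a name suffix that marks probes shared with other sequences, among them those of HNRNPC, HNRNPDL, HNRNPM, HNRNPA0, HNRNPA1, PTBP1 and PTBP3. Signals of close paralogs (HNRNPH1 and HNRNPH2, SNRPN and SNRPB, U2AF1 and U2AF1L4) could likewise share probes, which was not tested.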

How the data were processed

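Per the labels, total RNA was extracted with Trizol and biotin-labeled for the rhesus macaque GeneChip, and RMA is the tool named in the submitters' processing notes. The deposited table holds log2 signals, which the authors made by MAS 5.0 background correction, quantile normalization of each center's arrays and RMA summarization of all 30 arrays together. The table was used as deposited, without 158 control probesets, which left 52707. Gene symbols came from the platform annotation and all 74 matched RefSeq by Entrez ID, while 361 probesets with several symbols named no gene. A linear model with tissue and center was fitted to all probesets with limma 3.58.1 in R 4.3.3, with Benjamini-Hochberg adjustment per contrast. A minimum log2 difference of 1 marked larger calls. The methods' SAM was not used, since it gives no tissue or direction. The number of arrays limits the precision.

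The genes and lists were chosen with earlier results of these data known. Named genes were all of the tissue-specific families and, of the others, up to 4 highest and 3 lowest called per tissue, the 5 flattest, the 3 that differed most between centers and 4 per list, with others added after their values were seen. Alternatives were joint quantile normalization, no center term, only probesets with a mean signal above the median, the mean over a gene's probesets, a replicate block, single centers, no pancreas arrays and leaving out each array. Leaving out each center was added after the data were seen. No genome build is given in the sources used here, so no coordinates are printed.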

Additional observations from a re-analysis of the deposited data

Results flagged for a closer look

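Among 235 groups of 6 arrays (47 genes in 5 tissues), 2 held 1 array far from the others, where chance alone marks about 1 group in 20. ELAVL3 was at 6.49 on the cortex array of Nebraska aliquot 2, where the nearest cortex array was at 6.75, still above every array of the other tissues. HNRNPLL was at 8.10 on the cortex array of Yerkes aliquot 2, with the nearest cortex array at 7.83.

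The interaction test of limma together with a difference of at least 1 between centers picked out 2 genes. For HNRNPC in pancreas the centers differed by 1.48, with -1.23 at Oregon and 0.25 at Nebraska (limma F test, adjusted p = 7.52e-06). The HNRNPC signal of fibroblasts averaged 9.13, 7.94 and 8.96 at Oregon, Nebraska and Yerkes, and that of pancreas 7.16, 8.19 and 7.81. For SF3B4 in fibroblasts the centers differed by 1.19, with means of 8.09 at Oregon, 9.02 at Nebraska and 8.87 at Yerkes (limma F test, adjusted p = 0.000903).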

How the results depend on the processing

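Of 93 called differences of named genes, leaving out 1 array kept 83 in every fit. The call of PRPF19 in cortex was lost in 23 of 30 fits, of THOC6 in pancreas in 6, of ELAVL1 and RBFOX1 in fibroblasts and MBNL3 in cortex in 5 each, of PTBP3 in thymus in 4, of HNRNPH2, SF3A3 and SNRPD3 in pancreas in 3 each and of CELF3 in pancreas in 1. The count lower in fibroblasts ranged from 0 to 2, that lower in pancreas from 36 to 39 and that higher in thymus from 22 to 23. Over 10 pairs of tissues each, deviations of arrays with the same aliquot number correlated from -0.06 to 0.02 at Oregon, from -0.06 to 0.09 at Nebraska and from -0.31 to 0.35 at Yerkes, so the numbers were not taken as pairing arrays. With center by aliquot as a replicate block, 92 of 93 calls held (PRPF19 in cortex was lost), 37 genes were lower in pancreas and 23 higher in thymus.

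With joint quantile normalization, 74 of 93 calls held and 11 turned: ELAVL1 in thymus (-0.43), and in pancreas QKI (0.24), SNRPN (0.50), PRPF19 (0.080), SF3A3 (0.33), U2AF2 (0.0016), SNRPD3 (0.054), SF3B3 (0.37), SNRPB (0.072), THOC6 (0.15) and SAP18 (0.046). Of the counts that moved, 19 were lower in cortex (25.7% against 12.9% of all genes), 3 by at least 1 (1.81% of all genes). In fibroblasts 3 were higher (4.05% against 13.2%), 0 by at least 1 (3.29%). In pancreas 14 were lower (18.9% against 11.3%), 1 by at least 1 (1.24%), and 1 was higher by at least 1 (3.98%). In thymus 1 was lower by at least 1 (1.16%). Each tissue has 2 arrays at every center, so leaving out the center term changes the SE and not the differences. Without that term 63 calls held and, by construction, none turned, with 5 lower in cortex (6.76% against 5.89% of all genes). In fibroblasts 2 were higher (2.7% against 10.8%) and 0 lower (2.53% of all genes). In pancreas 1 was higher (1.35% against 7.71%) and 21 lower (28.4% against 9.18%). In testis 5 were higher (6.76% against 5.47%) and 0 lower (0.693% of all genes), and in thymus 14 were higher (18.9% against 7.83%). Among probesets with a mean signal above the median, which hold 66 of the 74 genes, 7 were higher in cortex.

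With the mean over a gene's probesets, CELF3 in pancreas (-0.48), SF3A3 (0.37) and SF3B3 (0.47) in pancreas, and HNRNPA0 (-0.086) and DYRK1A (-0.072) in testis turned, and by at least 1 there were 0 lower in cortex, 0 higher in fibroblasts and 1 lower in thymus. With Oregon alone, 2 were higher and 1 lower in fibroblasts, 4 lower in pancreas by at least 1, 0 lower in testis, 1 higher in testis by at least 1 and 2 higher in thymus by at least 1. With Nebraska alone, 1 was lower in fibroblasts, 0 lower in testis, 1 higher in testis and 2 higher in thymus by at least 1, and PRPF19 in cortex (-0.12) and HNRNPH2 (0.11), HNRNPC (0.25) and PRPF39 (0.084) in pancreas turned. With Yerkes alone, 1 was lower in fibroblasts, 2 higher there by at least 1, 1 higher in pancreas, 6 higher and 0 lower in testis and 1 lower in thymus by at least 1, and THOC6 in pancreas (0.14) turned.

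Without the pancreas arrays the nearest tissue changes by construction. Then 40 were lower in cortex (54.1% against 20.6% of all genes), 14 by at least 1 (4.21% of all genes). In fibroblasts 9 were lower (12.2% against 9.72%), in testis 3 (4.05% against 8.17%) and in thymus 4 (5.41% against 12.7%). In thymus 2 were lower by at least 1, against 2.24% of all genes. Of the fits chosen after seeing the data, that without Oregon gave 0 lower in fibroblasts, 2 higher there by at least 1 and 0 lower in testis. That without Nebraska gave 1 higher in pancreas, 0 lower in testis, 1 higher in testis by at least 1 and 1 lower in thymus by at least 1. That without Yerkes gave 1 lower in fibroblasts, 0 lower in testis and 2 higher in thymus by at least 1. Except where pancreas or the center term was left out, the cause was not tested. All values rest on 1 RNA per tissue, and signals near the low end of the scale are the least certain.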
